A study of Mus musculus with 2 samples.

Results

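The primary cilium is an antenna-like organelle that most vertebrate cells carry, and 52 mouse genes that build it, sort proteins into it or signal through it are described here. They are the genes whose symbols equal a fixed list of cilium and ciliopathy genes, and all 52 were found among the 55536 genes of the tables made with annotation release M21. The series holds polyA plus RNA-seq of facial prominences, the swellings that form the face, from B6NCrl mouse embryos at 12.5 days. The 2 libraries came from separate pools of males and females, of 88 embryos for replicate 2 and of 120 for replicate 1. Per the labels, both libraries began with 10 ng of RNA, oligo-dT priming and Nextera tagmentation, with ERCC spike-in RNAs added, and they name no allele or treatment. Both libraries form 1 group, so levels are described and no condition is compared. With 2 libraries the smallest p of an exact 2-sided sign-flip test is 0.5, so no p-value is given. Counts estimated per gene summed to 39819334 in replicate 2 and 27887968 in replicate 1, and the 52 genes took 0.192% of them in each library. Their counts ranged from 297 to 5151 per gene in replicate 2 and from 214 to 3561 in replicate 1.

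A cilium grows from a basal body and is built by intraflagellar transport (IFT), in which IFT-B trains and a kinesin carry cargo to the tip and IFT-A trains and a dynein bring it back. The transition zone at its base gates what enters, and the BBSome carries membrane proteins out. Vertebrate hedgehog signalling runs through this organelle, and human disorders of it, the ciliopathies, often affect the face, limbs and kidneys.

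Promoter letters are given first, because transcription factors of the RFX family bind the X-box, an inverted repeat known from promoters of ciliary genes. The window searched ran from 250 bases before to 50 bases after each gene's start in RefSeq's table on GRCm38.p6, and 48 of the 52 genes matched it. Ift80, Ift122, Ift81 and Tmem67 had no entry. The motif searched was GTTNCN, then 0 to 3 bases, then NGNAAC, which reads the same on both strands. It was found in 6 of 48 windows (12.5%), in 7 of 42 windows of other cilium genes (16.7%), in 3.07% of 10403 detected protein-coding genes and in 3.08% of all 27025 windows. The 6 sites are printed because they are the matches among the 52 genes, 5′ to 3′ on the gene's strand with the motif in capitals.
B9d2: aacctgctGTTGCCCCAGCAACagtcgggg
Bbs7: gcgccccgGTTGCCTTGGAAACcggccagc
Ift57: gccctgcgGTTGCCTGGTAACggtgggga
Mks1: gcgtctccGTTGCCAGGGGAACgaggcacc
Tctn1: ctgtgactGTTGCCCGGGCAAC
Tctn3: tcccagcgGTTGCCAGGTAACgggaacca

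All 6 sites begin with GTTGCC. The B9d2 site lies at chr7:25680788-25680817 (plus strand), with its motif 16 to 29 bases after the start. The Tctn1 site at chr5:122264411-122264432 (minus strand) also lies after the start, with its motif at 36 to 49, the end of the window. The other 4 motifs lie before the start. The Mks1 site at chr11:87853183-87853212 (plus strand) is the nearest, at -24 to -11, followed by Ift57 at chr16:49699226-49699254 (plus strand), at -60 to -48. The Bbs7 site is at chr3:36613489-36613518 (minus strand), with its motif at -121 to -108, and the Tctn3 site at chr19:40612351-40612379 (minus strand), at -140 to -128. Of these 6 genes, 4 belong to the transition zone, where 4 of 10 windows held the motif.

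A single arm, GTTGCC, on either strand and including the pairs above, was found in 22 of 48 windows (45.8%). It was found in 15 of 42 windows of other cilium genes (35.7%), in 14.7% of detected protein-coding genes and in 14.1% of all windows. By role, 7 of 10 transition zone windows held it, against 1 of 7 windows of the hedgehog genes, where it was that of Evc. The median GC content of the windows was 59.8% for the 52-gene list, 57.3% for other cilium genes and 61.0% for detected protein-coding genes. A match describes letters in a window and shows no binding.

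**Figure D1:**
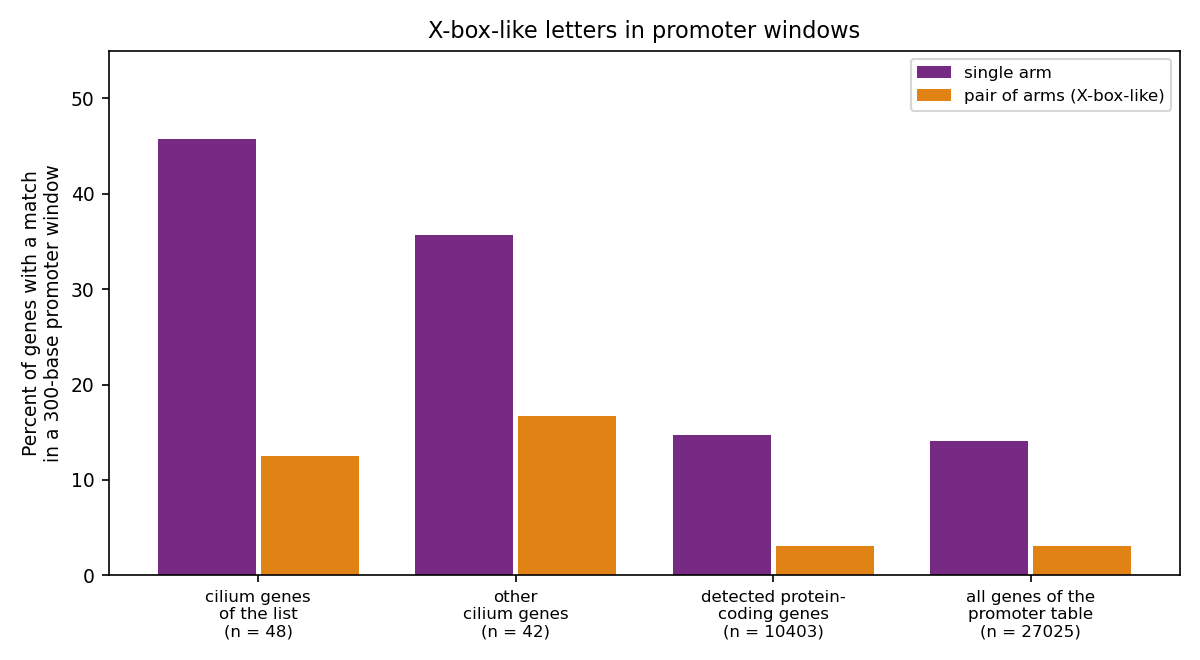
Percent of genes whose 300-base promoter window holds a single arm (purple) or the pair (orange), for the 48 cilium genes with a window, 42 other cilium genes, 10403 detected protein-coding genes and all 27025 windows. The single arm stands at 45.8%, 35.7%, 14.7% and 14.1%, and the pair at 12.5%, 16.7%, 3.07% and 3.08%.

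All 52 genes were detected, meaning a TPM of at least 1 in both libraries, as were 60.7% of 22028 protein-coding genes. TPM is a length-corrected share of all transcripts, so levels of different genes can be set side by side as far as that correction holds. Levels are those of release M21 unless the older release M4, with which the authors also quantified these reads, is named. Release M21 gives 51 of the 52 genes the type protein coding and Tctn2 the type processed transcript, so the protein-coding background holds 51 of them. The median level of the 52 genes was 18.5 TPM, beside 21.5 TPM for the 13382 detected protein-coding genes. Of the 52, 35 lay between the quartiles of those genes (7.34 TPM and 52.8 TPM, of the mean of both libraries), 8 above and 9 below. Levels ran from 1.82 TPM for Gpr161 to 149.5 TPM for Arl3, an 82.2-fold range. Only 3 genes reached 100 TPM (Arl3, Ift46 and Ift20), and 12 lay under 10 TPM. Effective lengths, over which reads are averaged, had a median of 2469 bases over the 52 genes in replicate 2. They were 748 bases for Arl3, 709 for Ift46 and 806 for Ift20. For the 3 lowest genes they were 6763 bases (Gpr161), 5382 (Intu) and 3026 (Bbs1). Whether levels follow length was not tested. The summed level of the 52 genes was 1485 in replicate 2 and 1493 TPM in replicate 1. In whole tissue, fewer cells of a type and less RNA per cell cannot be told apart.

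**Figure D2:**
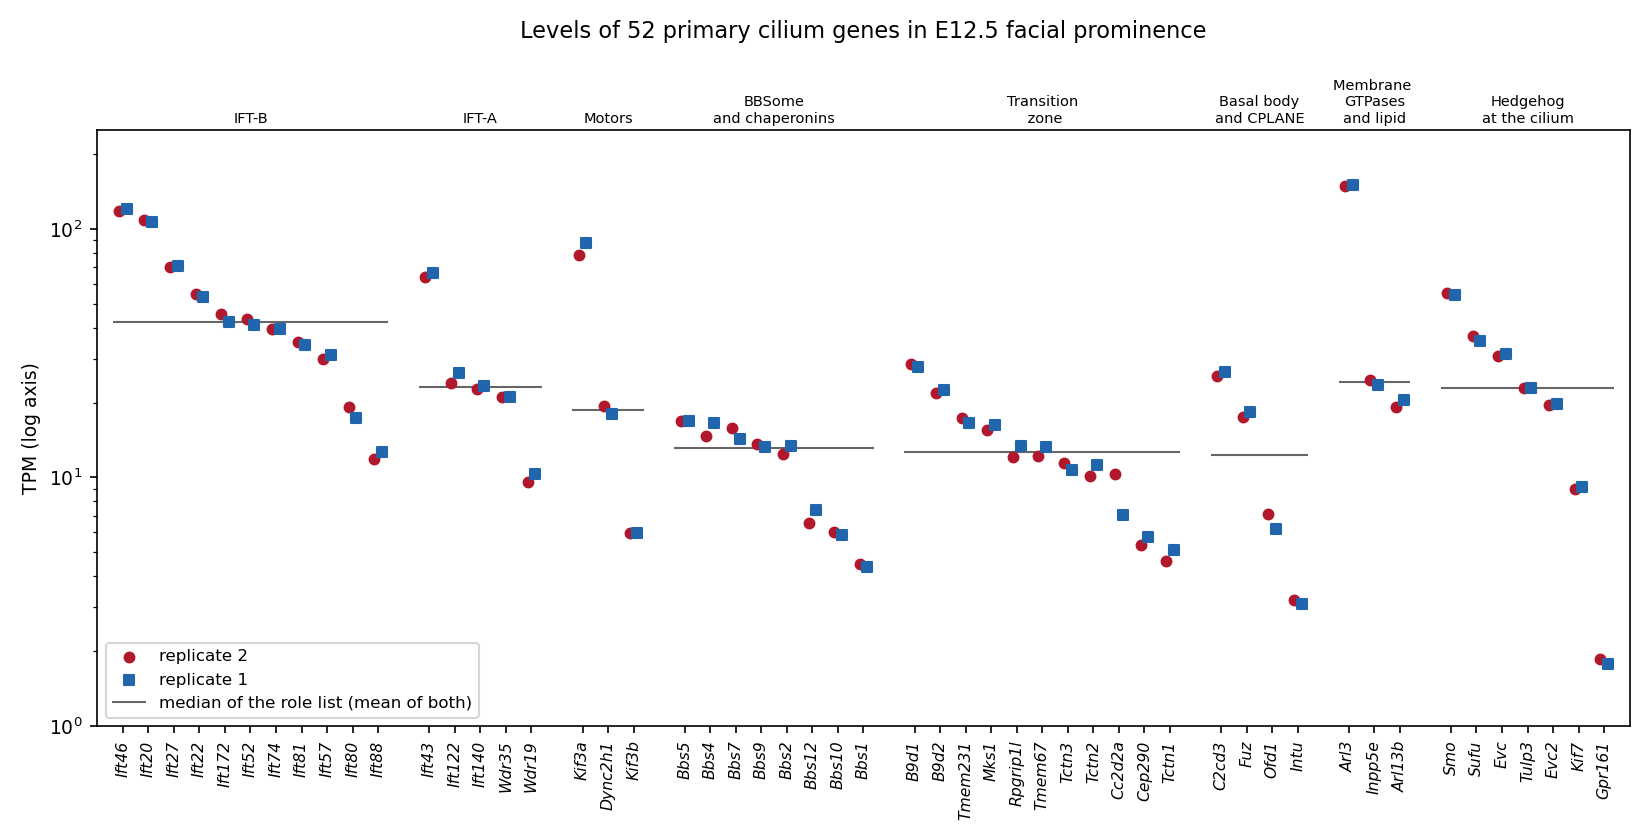
TPM (log axis) of the 52 cilium genes by role, with replicate 2 as red circles, replicate 1 as blue squares and the median of each role as a line. IFT-B genes have the highest median at 42.3 TPM, and within the other 7 roles the levels span more than 5-fold where the BBSome spans 3.82-fold. With release M4 the BBSome spans 7.57-fold, and IFT-A is then the narrowest at 7.34-fold.

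IFT-B genes, which encode the train that moves toward the tip, had the highest median of the 8 roles, 42.3 TPM over 11 genes. Ift46, a core subunit needed to carry dynein arms in the alga Chlamydomonas, stood at 118 in replicate 2 and 120.5 TPM in replicate 1 (119 ± 1.71, SD, n = 2). Ift20, which also sits at the Golgi and helps sort membrane cargo, stood at 109 in replicate 2 and 107 TPM in replicate 1. The small GTPase-like subunits Ift27 (70.3 in replicate 2, 71.0 TPM in replicate 1) and Ift22 (54.9 in replicate 2, 53.3 TPM in replicate 1) came next. The largest subunit, Ift172, stood at 45.4 in replicate 2 and 42.1 TPM in replicate 1, but with release M4 it stood at 21.8 in replicate 2 and 20.4 in replicate 1, the ninth place of the role. The core subunit Ift52 stood at 43.5 in replicate 2 and 41.0 TPM in replicate 1. Ift74 and Ift81, which together bind tubulin, lay close to each other: Ift74 stood at 39.7 TPM in replicate 2 and 39.5 in replicate 1, and Ift81 at 35.1 in replicate 2 and 34.2 in replicate 1. Their ratio was 1.13 in replicate 2 and 1.16 in replicate 1, and over protein-coding transcripts alone 1.54 in replicate 2 and 1.78 in replicate 1. The peripheral subunits Ift57 (30.0 in replicate 2, 31.2 TPM in replicate 1) and Ift80 (19.1 in replicate 2, 17.4 TPM in replicate 1) were lower. Ift88, whose loss in mice removes cilia, was the lowest of the role at 11.8 in replicate 2 and 12.6 TPM in replicate 1 (12.2 ± 0.566, SD, n = 2). Transcript levels of subunits of 1 train thus spanned 9.79-fold, and Ift46 exceeded Ift88 by 10.0-fold in replicate 2 and 9.58-fold in replicate 1. A 229-base transcript held 33.7% of the Ift46 TPM in replicate 2 and 34.3% in replicate 1. By counts it held 6.17% in replicate 2 and 6.36% in replicate 1. The Ift46 level, and with it the range, thus rests in part on a short transcript with few reads.

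IFT-A genes, whose products bring trains back and admit membrane receptors, had a median of 23.0 TPM over 5 genes. Ift43, a small peripheral subunit, was highest at 64.2 in replicate 2 and 66.5 TPM in replicate 1 (65.4 ± 1.61, SD, n = 2). The core subunits Ift122 (24.0 in replicate 2, 26.3 TPM in replicate 1) and Ift140 (22.6 in replicate 2, 23.4 TPM in replicate 1) and the peripheral subunit Wdr35 (21.1 ± 0.134, SD, n = 2) lay close together. Wdr19, a core subunit, was lowest at 9.54 in replicate 2 and 10.3 TPM in replicate 1 (9.93 ± 0.559, SD, n = 2). It stood at 0.421 of the Ift140 level in replicate 2 and 0.441 in replicate 1. With M4 this ratio was 0.346 in replicate 2 and 0.334 in replicate 1. Over protein-coding transcripts alone it was 0.536 in replicate 2 and 0.511 in replicate 1. The libraries did not change the order of the highest and lowest IFT-A gene.

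The 3 motor genes of transport spanned 14.0-fold. Kif3a, a motor subunit of the kinesin that runs to the tip, stood at 78.6 in replicate 2 and 87.8 TPM in replicate 1 (83.2 ± 6.48, SD, n = 2). Its partner motor Kif3b stood at 5.95 in replicate 2 and 5.97 TPM in replicate 1 (5.96 ± 0.0141, SD, n = 2). The ratio of Kif3a to Kif3b was 13.2 in replicate 2 and 14.7 in replicate 1. Restricted to transcripts annotated as protein coding, it was 8.43 in replicate 2 and 9.87 in replicate 1. Kifap3, which is not among the 52 and encodes the accessory subunit that binds both motors, lay between them at 46.3 in replicate 2 and 47.4 TPM in replicate 1. Dync2h1, the heavy chain of the returning dynein, stood at 19.4 in replicate 2 and 17.9 TPM in replicate 1. Of this a 2892-base transcript carried 10.1 TPM in replicate 2 and 9.57 in replicate 1. Its 14264-base transcript stood at 2.28 in replicate 2 and 2.26 TPM in replicate 1. The 13972-base transcript stood at 1.33 in replicate 2 and 1.30 TPM in replicate 1. Each of these long transcripts lay below Kif3b.

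The BBSome and its chaperonin-like assembly factors, mutated in human Bardet-Biedl syndrome, had a median of 13.1 TPM over 8 genes. Their 3.82-fold range was the narrowest of the roles with M21 but not with M4, where it was 7.57-fold beside 7.34-fold for IFT-A, nor over protein-coding transcripts alone, where it was 6.66-fold beside 3.23-fold for the basal body and CPLANE genes. Bbs5, a subunit that binds phosphoinositides, was highest at 16.9 TPM in both libraries (16.9 ± 0.0141, SD, n = 2). The subunits Bbs4 (14.6 in replicate 2, 16.5 TPM in replicate 1), Bbs7 (15.8 in replicate 2, 14.2 TPM in replicate 1), Bbs9 (13.6 in replicate 2, 13.2 TPM in replicate 1) and Bbs2 (12.4 in replicate 2, 13.4 TPM in replicate 1) followed. The values of Bbs4 and Bbs7 overlapped, as did those of Bbs9 and Bbs2. The chaperonin-like factors were lower, Bbs12 at 6.58 TPM in replicate 2 and 7.42 in replicate 1 and Bbs10 at 6.04 in replicate 2 and 5.87 in replicate 1. Bbs1, the subunit that contacts the GTPase Arl6, was lowest at 4.47 in replicate 2 and 4.37 TPM in replicate 1 (4.42 ± 0.0707, SD, n = 2). Bbs5 exceeded it by 3.77-fold in replicate 2 and 3.86-fold in replicate 1, and with M4 by 7.18-fold in replicate 2 and 8.01-fold in replicate 1. Over protein-coding transcripts alone Bbs5 was not the highest. It then stood at 11.2 in replicate 2 and 12.2 TPM in replicate 1, below Bbs4, Bbs7 and Bbs9.

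Transition zone genes, many of them mutated in human Meckel and Joubert syndromes, had a median of 12.7 TPM over 11 genes. B9d1 and B9d2, B9-domain proteins, were the highest: B9d1 stood at 28.7 in replicate 2 and 27.7 TPM in replicate 1 (28.2 ± 0.700, SD, n = 2), and B9d2 at 21.8 in replicate 2 and 22.5 TPM in replicate 1. The membrane protein Tmem231 followed at 17.3 in replicate 2 and 16.6 TPM in replicate 1. Mks1, the third B9-domain protein, stood at 15.5 in replicate 2 and 16.2 TPM in replicate 1. Tmem67, a membrane receptor-like protein, lay at the median with 12.2 in replicate 2 and 13.3 TPM in replicate 1. Rpgrip1l, a scaffold of the zone, stood at 12.1 in replicate 2 and 13.4 TPM in replicate 1, but with M4 at 6.84 in replicate 2 and 7.73 in replicate 1. The tectonics, secreted or membrane proteins of the gate, were unequal. Tctn3 stood at 11.4 in replicate 2 and 10.7 TPM in replicate 1 and Tctn2 at 10.1 in replicate 2 and 11.2 TPM in replicate 1, while Tctn1 was the lowest of the zone at 4.60 in replicate 2 and 5.11 TPM in replicate 1 (4.86 ± 0.361, SD, n = 2). Cc2d2a, a C2-domain protein of the zone, had the widest gap between libraries, at 10.3 in replicate 2 and 7.03 TPM in replicate 1. Cep290, which links microtubules to the membrane, stood at 5.32 in replicate 2 and 5.77 TPM in replicate 1. With M4 it was the lowest of the zone in place of Tctn1, at 3.61 in replicate 2 and 3.47 TPM in replicate 1, beside 5.19 in replicate 2 and 5.66 in replicate 1 for Tctn1. B9d1 exceeded Cep290 by 5.39-fold in replicate 2 and 4.80-fold in replicate 1, and with M4 by 8.43-fold in replicate 2 and 8.46-fold in replicate 1. Over protein-coding transcripts alone the excess was 4.00-fold in replicate 2 and 4.89-fold in replicate 1. B9d2 was then the highest of the zone, at 21.8 in replicate 2 and 22.5 TPM in replicate 1. B9d1 followed at 15.9 in replicate 2 and 18.1 TPM in replicate 1.

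Basal body and CPLANE genes had a median of 12.3 TPM over 4 genes. C2cd3, a protein of the distal centriole needed to start a cilium, was highest at 25.5 in replicate 2 and 26.6 TPM in replicate 1 (26.0 ± 0.778, SD, n = 2). Fuz, a planar polarity effector whose loss in mice gives facial defects, stood at 17.5 in replicate 2 and 18.3 TPM in replicate 1. Ofd1, the X-linked gene of human oral-facial-digital syndrome, stood at 7.13 in replicate 2 and 6.18 TPM in replicate 1. Intu, the partner of Fuz in the CPLANE complex, was lowest at 3.21 in replicate 2 and 3.10 TPM in replicate 1 (3.16 ± 0.0778, SD, n = 2). The role spanned 8.25-fold, but 3.23-fold over protein-coding transcripts alone. C2cd3 then stood at 10.2 TPM in both libraries and Fuz at 8.28 in replicate 2 and 8.57 TPM in replicate 1.

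Genes of the ciliary membrane had a median of 24.1 TPM over 3 genes. Arl3, a GTPase that releases lipid-anchored cargo into the cilium, was the highest of the 52 at 149 in replicate 2 and 149.7 TPM in replicate 1 (149.5 ± 0.205, SD, n = 2). Arl13b, the GTPase that activates Arl3, stood at 19.1 in replicate 2 and 20.5 TPM in replicate 1 (19.8 ± 1.03, SD, n = 2), so Arl3 exceeded it by 7.83-fold in replicate 2 and 7.29-fold in replicate 1. With M4 the excess was 11.1-fold in replicate 2 and 11.3-fold in replicate 1. Inpp5e, a phosphoinositide phosphatase of the ciliary membrane, stood at 24.6 in replicate 2 and 23.6 TPM in replicate 1.

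Genes of hedgehog signalling at the cilium had a median of 22.9 TPM over 7 genes and the widest range, 30.1-fold. Over protein-coding transcripts alone the range was 27.4-fold. That of the transition zone was then 27.0-fold, with Tctn2 left out because it has no such transcript. Smo, the signal transducer, was highest at 55.1 in replicate 2 and 54.3 TPM in replicate 1, and Sufu, which holds Gli factors back, followed at 37.2 in replicate 2 and 35.3 TPM in replicate 1. Evc and Evc2, which form a ring near the base and bind Smo, are mutated in human Ellis-van Creveld syndrome. Evc stood at 30.7 TPM in replicate 2 and 31.3 in replicate 1, and Evc2 at 19.6 in replicate 2 and 19.7 in replicate 1, a ratio of Evc to Evc2 of 1.56 in replicate 2 and 1.59 in replicate 1. Over protein-coding transcripts alone the ratio was 1.26 in replicate 2 and 1.16 in replicate 1. Tulp3, an adaptor that brings receptors into the cilium with IFT-A, stood at 22.9 TPM in both libraries. Kif7, a kinesin-like protein of the ciliary tip, stood at 8.98 in replicate 2 and 9.17 TPM in replicate 1. Gpr161, a ciliary receptor that restrains the pathway, was the lowest of the 52 at 1.86 in replicate 2 and 1.78 TPM in replicate 1 (1.82 ± 0.0566, SD, n = 2). Its counts were 329 in replicate 2 and 222 in replicate 1, and Smo exceeded it by 29.6-fold in replicate 2 and 30.5-fold in replicate 1.

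The 46 other cilium genes, 45 of them detected, had a median of 25.1 TPM, above the 21.5 TPM of detected protein-coding genes. That of the 52 genes, 18.5 TPM, lay below the 21.5 TPM. By role the medians were 17.7 TPM for other IFT and motor genes, 29.9 for other BBSome genes and 28.4 for other transition zone genes. Within the 52 they were 42.3 TPM for IFT-B, 23.0 for IFT-A, 18.7 for motors, 13.1 for the BBSome and 12.7 for the transition zone. Beside the IFT and motor genes above, 13 of 14 further ones were detected, the highest being Kifap3, Wdr34 (34.3 TPM in replicate 2 and 36.1 in replicate 1) and Dync2li1 (30.0 in replicate 2, 31.2 TPM in replicate 1). Wdr34 and Dync2li1 encode subunits of the returning dynein. Ttc30a2, an IFT-B gene with near-identical copies whose reads may have been divided, was the only one under 1 TPM, at 0.310 in replicate 2 and 0.410 TPM in replicate 1. Further BBSome genes were detected in 5 of 5 cases, with the small subunit Bbip1 at 69.0 in replicate 2 and 71.2 TPM in replicate 1, the regulator Lztfl1 at 43.3 in replicate 2 and 42.1 TPM in replicate 1 and the subunit Ttc8 at 28.7 in replicate 2 and 31.1 TPM in replicate 1. Further transition zone genes were detected in 11 of 11 cases, led by Iqcb1 (51.8 in replicate 2, 51.9 TPM in replicate 1), Tmem216 (48.2 in replicate 2, 49.0 TPM in replicate 1) and Tmem107 (28.7 in replicate 2, 34.2 TPM in replicate 1). Genes of the distal appendages and of ciliary assembly and trafficking were detected in 16 of 16 cases, led by the GTPase Rab11a (221 in replicate 2, 219 TPM in replicate 1), the Arl-binding Arl2bp (131 in replicate 2, 127 TPM in replicate 1) and the GTPase Rab8a (96.0 in replicate 2, 94.2 TPM in replicate 1).

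The hedgehog pathway outside the list was detected in 12 of 12 genes. The co-receptors Gas1 (239.7 TPM in replicate 2 and 205 in replicate 1) and Boc (29.0 in replicate 2, 29.3 TPM in replicate 1) and the factor Gli3 (28.0 in replicate 2, 28.1 TPM in replicate 1) were highest. Hhip, which binds and removes the ligand, was the only pathway gene past 0.5 between libraries, at 4.53 in replicate 2 and 2.65 TPM in replicate 1, a log2 ratio of 0.60 (count ratio interval 1.35 to 1.76). RFX factors were detected in 6 of 6 genes with a median of 9.02 TPM, led by Rfx3 (12.3 in replicate 2, 13.8 TPM in replicate 1), Rfx7 (11.4 in replicate 2, 11.5 TPM in replicate 1) and Rfx5 (10.4 in replicate 2, 9.44 TPM in replicate 1).

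Markers of motile cilia, the beating type on some epithelia, were detected in 4 of 18 genes, with a median of 0.365 TPM and a summed level of 25.4 in replicate 2 and 21.9 TPM in replicate 1. The 4 were Ccdc40, Ccdc39, Tekt1 and Dnaic2. Foxj1, the regulator of motile cilia, stood at 1.42 in replicate 2 and 0.800 TPM in replicate 1. Mcidas stood at 0.20 in replicate 2 and 0.19 TPM in replicate 1, the dynein Dnah5 at 0.0100 TPM in both and Sntn at 0. The labelled tissue showed 8 of 8 facial mesenchyme markers and 6 of 6 epithelial markers, and also 8 of 8 neuronal and 6 of 6 eye markers.

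Between the libraries, 0 of 52 cilium genes were past a log2 ratio of 0.5, beside 2.09% of 13382 detected protein-coding genes (0.934% higher and 1.16% lower in replicate 2) and 1.20% of those with counts in the same range. The ratio is log2 of TPM plus 1 in replicate 2 over replicate 1, and it understates differences of low genes. It ranged from -0.16 to 0.50, with 24 genes higher in replicate 2 and 28 lower, beside 6717 higher and 6626 lower of the 13382. Its median size was 0.0586 for the 52 genes, 0.0614 for the 46 other cilium genes and 0.0848 for detected protein-coding genes, and 51 of 52 lay within 0.2, beside 82.6%. The exact 95% interval of the ratio of counts left out 1 in 3 of 52 genes, in 13 of 46 other cilium genes and in 30.0% of detected protein-coding genes. Among the 9285 genes in the same range of counts the share was 28.8%. Counts of the 52 genes had a median of 1067 in replicate 2 and 793 in replicate 1. These intervals cover only the counting error of reads taken as independent, and with 1 library a side the differences have no replicate check.

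The 3 genes were Cc2d2a, Ift80 and Ofd1, all higher in replicate 2. Ofd1 had 811 counts in replicate 2 and 496 in replicate 1, a log2 ratio of 0.18 (count ratio interval 1.02 to 1.28). Ift80 had 1807 counts in replicate 2 and 1106 in replicate 1, a log2 ratio of 0.13 (interval 1.06 to 1.23). Cc2d2a had 1030.0 counts in replicate 2 and 585 in replicate 1, a log2 TPM ratio of 0.495 and a count ratio of 1.23 (interval 1.11 to 1.37). The gap in TPM was wider than in counts, and its effective length, the length over which reads are averaged, was 3817 bases in replicate 2 and 4514 in replicate 1. A retained-intron transcript of 1194 bases stood at 3.20 in replicate 2 and 0.990 TPM in replicate 1, with 91.8 counts in replicate 2 and 19.9 in replicate 1. The 5484-base protein-coding transcript stood at 4.93 in replicate 2 and 4.22 TPM in replicate 1. Bbs4 and Kif3a were lowest, each at -0.16, with intervals of 0.871 to 1.06 and 0.920 to 1.02.

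Marker levels of other cell types also differed between the libraries. The neuronal list summed to 465 in replicate 2 and 583 TPM in replicate 1, lower in 8 of 8 genes. The eye list summed to 475 in replicate 2 and 211 TPM in replicate 1, higher in 6 of 6. Of the 13382 detected protein-coding genes, 6717 were higher and 6626 lower in replicate 2. Past 0.5 in the eye list were Cryaa (log2 ratio 1.32), Cryba1 (1.22), Crybb1 (1.02) and Pmel (0.83). Facial mesenchyme markers summed to 920.2 in replicate 2 and 980.3 TPM in replicate 1, with 4 genes higher and 4 lower in replicate 2. Among these Barx1 stood at 83.9 in replicate 2 and 168 TPM in replicate 1 (log2 ratio -0.99), Dlx5 at 54.8 in replicate 2 and 80.8 TPM in replicate 1 (-0.55) and Alx1 at 149.9 in replicate 2 and 103 TPM in replicate 1 (0.54), the 3 past 0.5. The count ratio interval lay above 1 in 4 and below 1 in 4 of the 8. Epithelial markers summed to 332 in replicate 2 and 319 TPM in replicate 1. Their part in the ratios of the cilium genes was not tested.

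**Figure D3:**
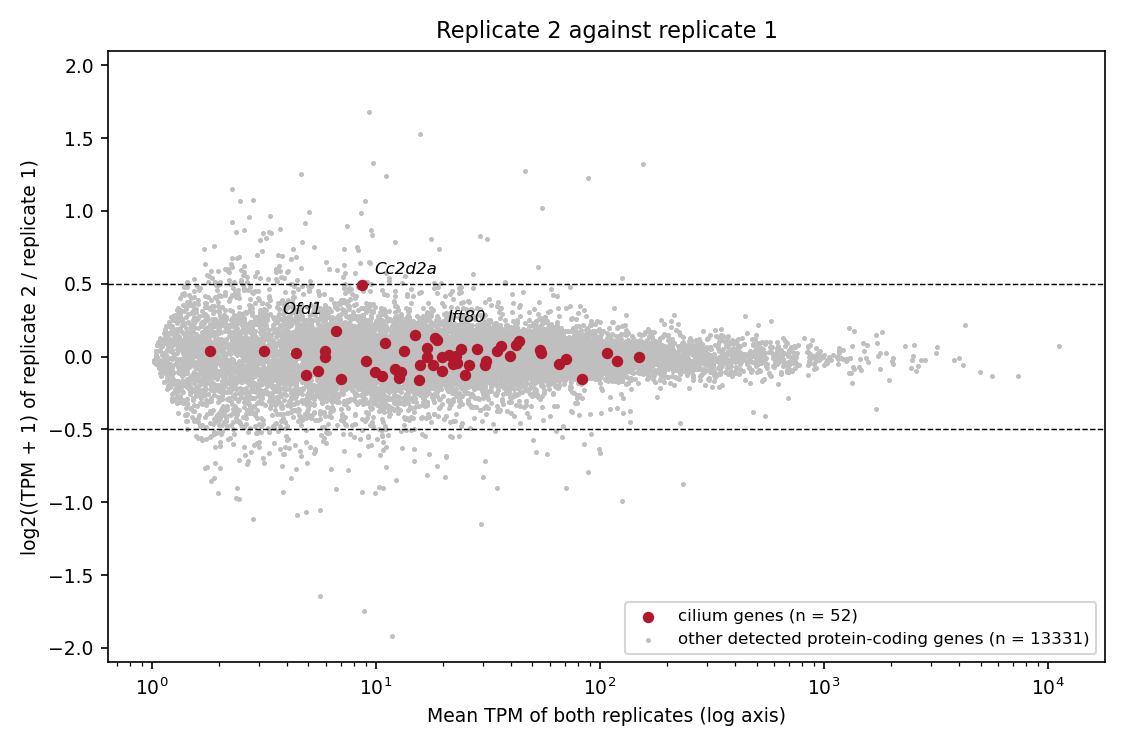
Log2 ratio of TPM plus 1, replicate 2 over replicate 1, against mean TPM (log axis) for all 52 cilium genes (red) and 13331 other detected protein-coding genes (grey), with dashed lines at 0.5 and -0.5. All red points lie between the lines, and Cc2d2a sits at the upper line at 0.495.

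Transcript tables give the percent of each gene's TPM carried by each annotated transcript. A single transcript held at least 50% in both libraries in 36 of 52 genes, beside 71.7% of detected protein-coding genes. Reads shared by transcripts were divided by estimation, so these shares are descriptions. The same transcript led in both libraries in 51 of 52 genes, beside 91.5%. The exception was Ift122, where a 4122-base transcript held 47.6% in replicate 2 and 30.5% in replicate 1, and a 4056-base transcript 27.4% in replicate 2 and 40.0% in replicate 1. Leading shares under 50% in both libraries were found in 12 genes and in at least 1 library in 16. Beside Ift122 these included Ift20 (38.7% in each), Ift22 (39.1% in replicate 2 and 35.4% in replicate 1), Ift46 (39.1% in replicate 2, 38.2% in replicate 1) and Wdr19 (49.4% in each). Evc (44.7% in replicate 2, 45.6% in replicate 1), C2cd3 (40.0% in replicate 2, 38.1% in replicate 1), Bbs1 (44.2% in replicate 2, 39.6% in replicate 1) and Fuz (38.4% in replicate 2, 33.4% in replicate 1) belonged to them too. Fuz had the most annotated transcripts, 15, where the median gene of the 52 had 6. In Bbs9 the leading 3382-base transcript held 32.6% in replicate 2 and 51.4% in replicate 1. Bbs5, Cc2d2a and Arl13b likewise crossed 50% between the libraries.

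The leading transcript was of a type other than protein coding in both libraries in 3 genes, beside 8.15% of detected protein-coding genes. For Kif3a it was a 770-base transcript of the nonsense-mediated decay type, with 32.4% of TPM in replicate 2 and 30.5% in replicate 1. By counts it was smaller, at 12.7% in replicate 2 and 13.1% in replicate 1. For Tctn1 it was a 2201-base transcript of the same type, with 43.6% of TPM in replicate 2 and 41.0% in replicate 1. For Tctn2 it was a 2733-base processed transcript, with 80.8% in replicate 2 and 71.8% in replicate 1. Release M21 gives Tctn2 no protein-coding transcript, whereas RefSeq's table lists the gene as protein coding, so its place among the 3 follows from the annotation. Without it 2 of 51 genes remain.

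The median share of TPM in protein-coding transcripts was 85.6% over the 52 genes and 85.8% without Tctn2, beside 90.9% for detected protein-coding genes. It was under 50% in both libraries in Ift172, Tctn1, Tctn2, C2cd3 and Fuz, 5 of 52 genes or 4 of 51 without Tctn2, beside 9.93%. Levels over protein-coding transcripts alone were 20.1 in replicate 2 and 19.0 TPM in replicate 1 for Ift172, 0.870 in replicate 2 and 0.770 TPM in replicate 1 for Tctn1, 10.2 TPM in both for C2cd3 and 8.28 in replicate 2 and 8.57 TPM in replicate 1 for Fuz. Shares of TPM and of counts parted where a short transcript carried few reads. The 5403-base transcript of Ift172 held 40.5% of TPM in replicate 2 and 41.1% in replicate 1, but 87.2% of counts in replicate 2 and 87.0% in replicate 1. In Rpgrip1l a 278-base transcript held 65.7% of TPM in replicate 2 and 64.9% in replicate 1, but 4.84% of counts in replicate 2 and 5.85% in replicate 1. Its 7009-base transcript held 32.1% of TPM in replicate 2 and 25.3% in replicate 1, but 91.4% of counts in replicate 2 and 87.9% in replicate 1. The gene levels of Ift172 and Rpgrip1l therefore rest in large part on short transcripts with few reads.

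**Figure D4:**
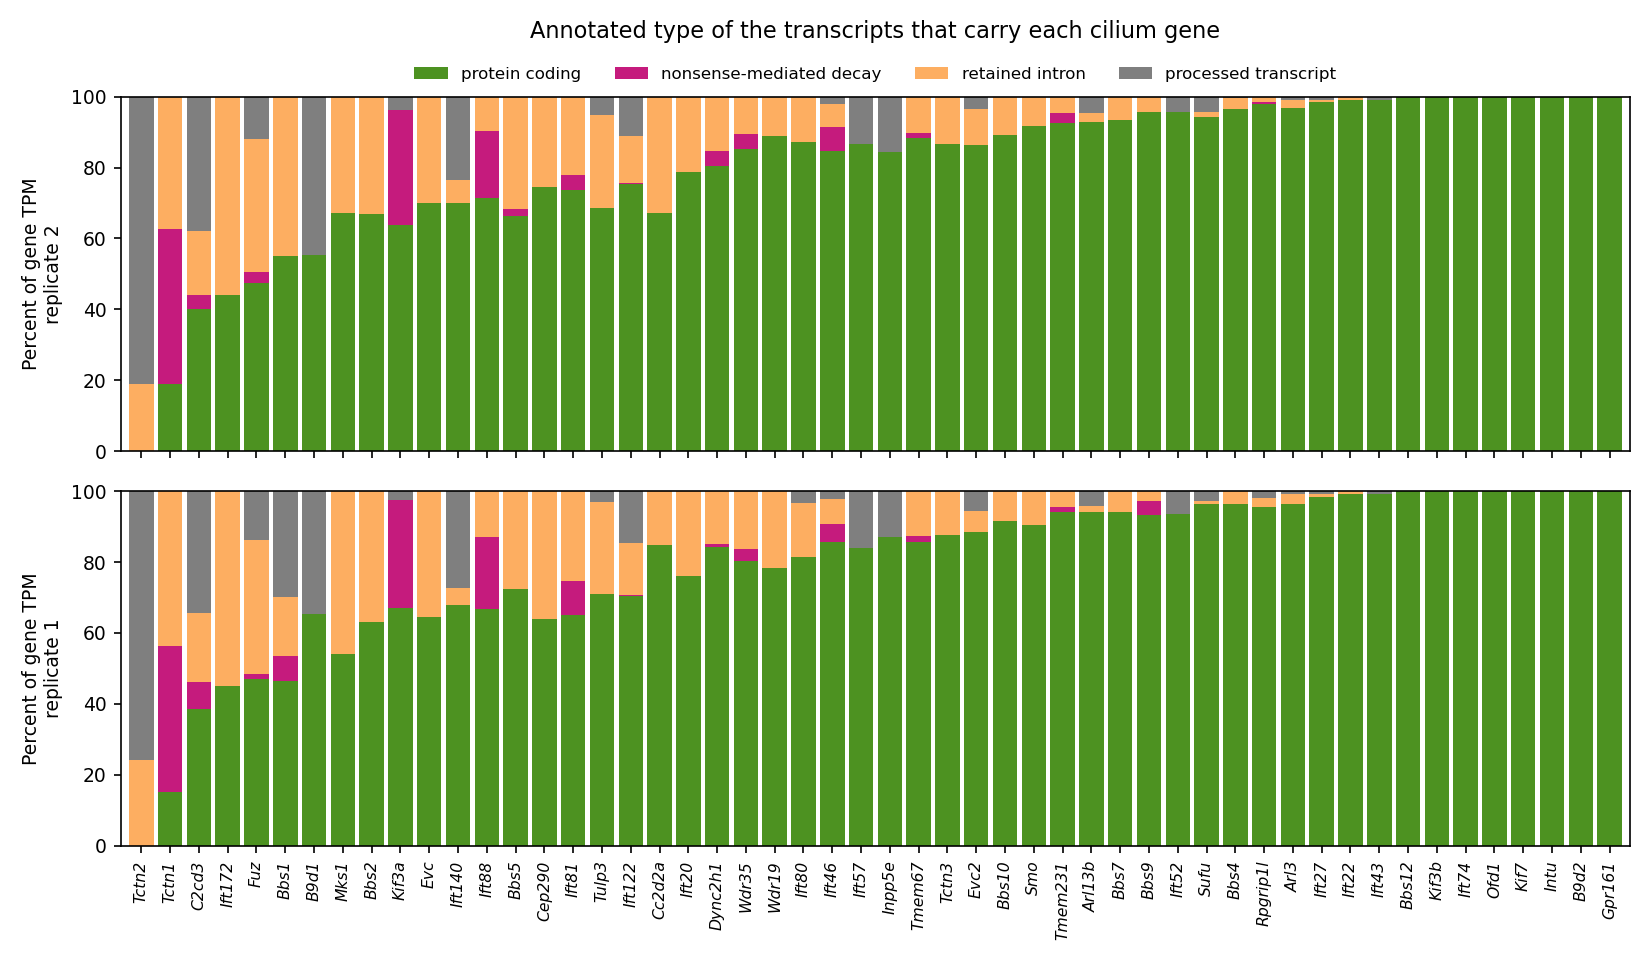
Percent of each gene's TPM by annotated transcript type, replicate 2 above and replicate 1 below, with genes ordered by their protein-coding share. Tctn2, with no protein-coding transcript in release M21, stands at the left, and 8 genes at the right carry protein-coding transcripts alone in both libraries.

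The TPM ratio of M21 over M4 was past 0.5 on the log2 scale in both libraries in 3 of 52 genes, all higher in M21, beside 6.16% of 13284 detected protein-coding genes (5.20% higher and 0.956% lower in M21). In replicate 2 Ift172 stood at 45.4 TPM with M21, against 21.8 with M4 (log2 ratio 1.03), and in replicate 1 at 42.1, against 20.4 (1.01). Its counts moved little, at 2921 in replicate 2 with M21 against 2865 with M4. Rpgrip1l stood in replicate 2 at 12.1 TPM with M21, against 6.84 with M4 (0.74), and in replicate 1 at 13.4, against 7.73 (0.73). Bbs1 stood in replicate 2 at 4.47 TPM with M21, against 2.48 with M4 (0.65), and in replicate 1 at 4.37, against 2.23 (0.73). Cep290 (0.46 in replicate 2 and 0.60 in replicate 1) and Arl13b (0.40 in replicate 2 and 0.52 in replicate 1) were past 0.5 in replicate 1 alone. In the other direction Ift57 (-0.40 in replicate 2 and -0.39 in replicate 1) and Cc2d2a (-0.39 in replicate 2 and -0.44 in replicate 1) came nearest. Of the 52 genes, 31 lay between -0.10 and -0.04 in both libraries, around the median of -0.06 that all detected genes also showed.

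**Figure D5:**
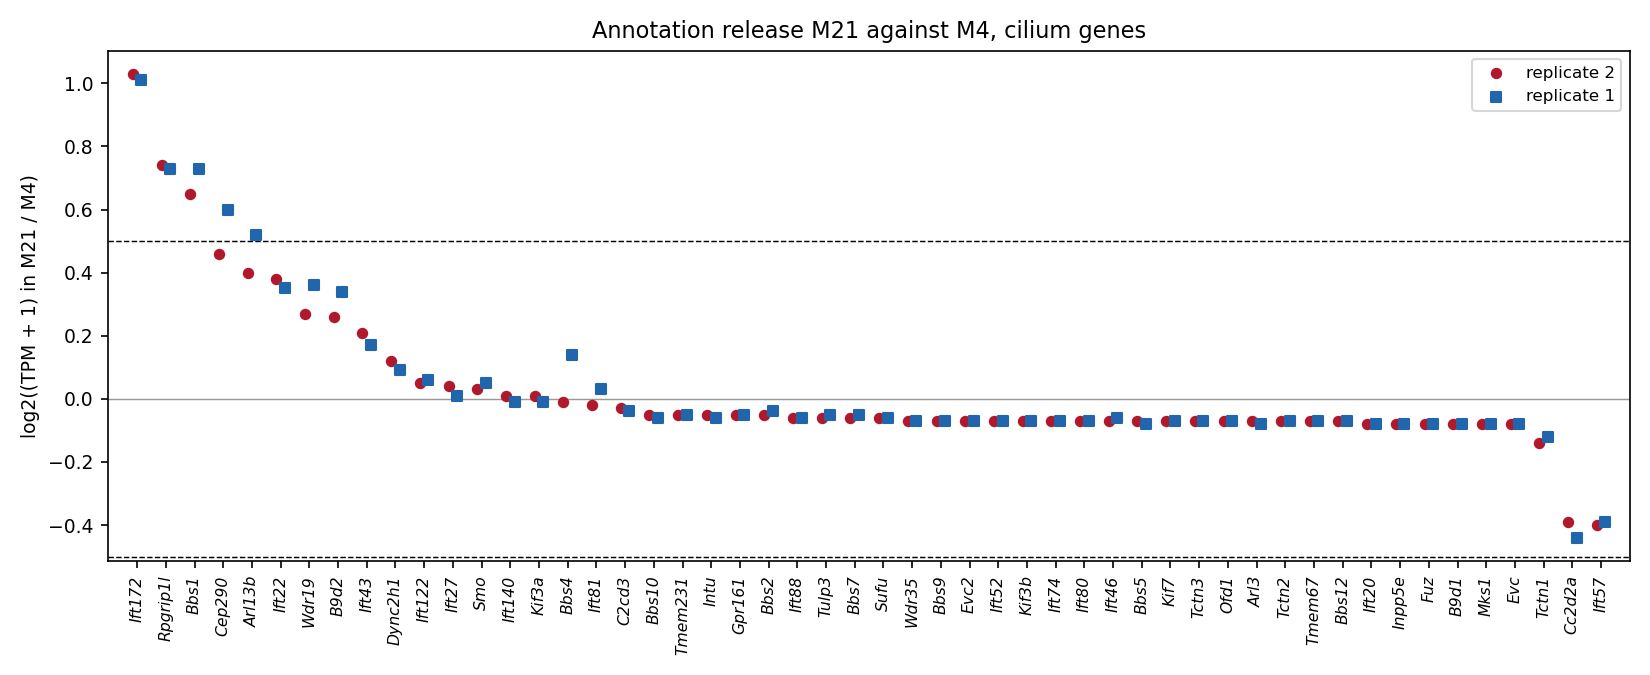
Log2 ratio of TPM plus 1 with release M21 over M4 for each of the 52 cilium genes, replicate 2 as red circles and replicate 1 as blue squares, with dashed lines at 0.5 and -0.5. Ift172, Rpgrip1l and Bbs1 lie above the line in both libraries, Cep290 and Arl13b in replicate 1 alone, and no gene lies below the lower line.

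The 52 genes lay on 18 chromosomes, with 9 on chromosome 5 and 1, Ofd1, on the X. Evc (chr5:37289098-37336894, minus strand) and Evc2 (chr5:37338499-37425055, plus strand) are neighbours on opposite strands. Exons of 12 genes overlapped a gene on the opposite strand. Whether strand was used in counting is not stated, so reads of such pairs cannot be told apart. In 9 of the 12 a neighbour stood above the cilium gene in both libraries, and in 3, Bbs12, Ift57 and Ift88, every opposite-strand neighbour stood below it. Among the 9, Fuz overlaps Ap2a1 (66.2 TPM in replicate 2 and 59.9 in replicate 1), Inpp5e overlaps Pmpca (84.7 in replicate 2, 88.3 TPM in replicate 1), C2cd3 overlaps Ppme1 (46.6 in replicate 2, 49.2 TPM in replicate 1) and Bbs4 overlaps Adpgk (35.8 in replicate 2, 33.4 TPM in replicate 1). Ofd1 overlaps Trappc2 (24.4 in replicate 2, 23.4 TPM in replicate 1) and Tctn1 overlaps Hvcn1 (10.2 in replicate 2, 9.17 TPM in replicate 1). Of the 52 genes, 11 had counts more than 0.005 from a whole number in at least 1 library, so some of their reads had been divided with other features. All of these but Smo were among the 12 with an opposite-strand overlap, of which only Ift88 and Bbs12 had whole counts. Whether their reads were divided with the opposite-strand neighbours was not tested.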

How the data were processed

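PolyA plus RNA-seq of 2 libraries of 1 group was analysed. Per the file headers, the authors deposited for each gene an expected count, TPM and FPKM, and for each transcript the percent of its gene's abundance, on mm10 with GENCODE releases M21 and M4. For aligner, quantifier and strand setting: not given in the sources used here. The deposited TPM gave levels, and rounded expected counts gave intervals of the replicate ratio (exact conditional Clopper-Pearson, 95%), scaled by summed gene counts. They cover only the counting error of reads taken as independent. Amplified reads are not independent molecules, so the intervals may be too narrow. Rows naming no gene were left out of scaling, and spike-ins took 3.10% of counts in replicate 2 and 2.85% in replicate 1. Summed expected counts over all rows were 41092194 in replicate 2 and 28705073 in replicate 1. A gene was called detected at 1 TPM or more in both libraries, and a log2 ratio of TPM plus a pseudocount of 1 past 0.5 was counted. Gene types, names and coordinates came from GENCODE M21. The protein-coding background therefore leaves out Tctn2, which M21 types as a processed transcript.

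Every member could be named. From each list of other cilium, hedgehog and RFX genes the 3 with the highest mean TPM, those under 1 TPM in both libraries and those past 0.5 were taken. From the facial mesenchyme, neuronal, epithelial and eye lists only genes past 0.5 were named. The partner genes set as ratios, the overlapping neighbours, the motile cilium markers and the marker sums were added for description. The members and lists were chosen with earlier results of these data known. Replicates are separate pools per the labels. The calculations were tested on simulated data. Python 3.11.15, numpy 2.4.6, pandas 2.3.3, scipy 1.17.1, matplotlib 3.10.9, R 4.3.3 and edgeR 4.0.16 (TMM factors, an alternative scaling) were used. Other alternatives were the pseudocount, the TPM estimate, FPKM, the annotation release, the minimum level, leaving out a replicate and the motif's spacer.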

Additional observations from a re-analysis of the deposited data

How the results depend on the processing

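All 52 genes stayed detected with posterior mean TPM, FPKM, release M4, a minimum of 0.5 and either library left out, and 48 with a minimum of 5. Their median level of 18.5 TPM became 11.8 in FPKM, another unit, and 15.4 over protein-coding transcripts alone, where Tctn2 counts as 0. The protein-coding restriction, like ranking transcripts by counts and recomputing role ranges and partner ratios with M4, was chosen after seeing the data. The count past 0.5 between replicates, 0, became 1 with a pseudocount of 0.1, where 3.87% of detected protein-coding genes were past it, and 1 with posterior mean TPM, where 1.59% were. It was Cc2d2a in each case, at 0.55 and 0.50. The Cc2d2a ratio was 0.29 to 0.46 with CPM, TMM, spike-ins, FPKM and release M4. Scaling on the spike-ins moved the median log2 ratio of the 52 genes to -0.13, as it did that of all genes (-0.13), with 3 genes higher and 49 lower in replicate 2. The count past 0.5 between releases ranged from 3 to 5 with a library left out, 5 being without replicate 2, which added Cep290 and Arl13b. The number of genes with a leading transcript of at least 50% was 32 to 44 across all settings. For detection, releases and leading transcripts, the share over all genes was taken at the settings of the main results alone. Motif matches were 6 (12.5%) with a spacer of up to 2 bases. In other cilium genes they were then 5 (11.9%), below the share of the 52-gene list, and in detected protein-coding genes 2.63%. No paired analysis was possible because the labels give 1 group. At the lowest count, 214 for Tctn1 in replicate 1, the interval of the replicate ratio spanned 0.813 to 1.16.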
